A study of Mus musculus with 401 samples.

Results

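The expression of 10 genes that hold the mouse oocyte in prophase of meiosis or release it was followed in single oocytes and in the cumulus cells around them. The genes form a list of names that applies no measured value as its rule, although it was drawn up with earlier results of these data known: Cdk1, Ccnb1, Ccnb2, Ccnb3, Cdc25b, Wee2, Fzr1, Mos, Plk1 and Fbxo43. All 10 were present among the 43633 gene identifiers of the count tables. Total RNA was sequenced by RamDA-seq, a full-length method that does not depend on poly(A) tails, from each oocyte and from the pool of its own cumulus cells. All mice were B6D2F1 females, a first-generation hybrid of the C57BL/6 and DBA/2 strains, and the oocytes came from fully grown follicles and were kept at the germinal vesicle stage with IBMX, an inhibitor of the breakdown of cyclic AMP. The first set held hyperovulated mice fed ad libitum at 2 months (Young, 16 oocytes), 9 months (Middle, 14) and 14 months (Old, 16), and mice under calorie restriction begun in adulthood that were also hyperovulated at 9 months (CR, 27). The second set held hyperovulated mice fed ad libitum at 2 months (2mo, 24 oocytes), 4 months (4mo, 39), 9 months (9mo, 16) and 14 months (14mo, 16), and 2-month mice without hyperovulation (2moNoH, 32). Hyperovulation was induced with eCG or with CARD HyperOva, and the labels do not say which agent a group received. The number of mouse labels per group ran from 2 in Young and Old to 8 in 4mo and 2moNoH, and 1 Old label joins more than 1 mouse.

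Entry into the meiotic divisions depends on maturation-promoting factor, a complex of the kinase Cdk1 with a B-type cyclin. In the arrested oocyte, cyclic AMP keeps Wee2 active and Cdc25b out of the nucleus, so that Cdk1 carries its inhibitory phosphates, while Fzr1 directs the anaphase-promoting complex (APC/C) to destroy cyclin B. On resumption Cdc25b removes the phosphates, Plk1 reinforces the activation, and Mos and Fbxo43 later hold the mature egg in metaphase II. Much of this control acts on proteins, which were not measured; the values here are RNA levels.

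The identity of the libraries was checked by correlation with the mean of each cell type and on 12 oocyte and 12 cumulus marker genes. One Middle complex was left out, because over all genes its oocyte library correlated better with the mean of the cumulus libraries than with that of the oocytes. That library held oocyte markers at 0.797% of the level of a median oocyte library and cumulus markers at 132% of a median cumulus library. This left 200 oocyte and 199 cumulus libraries, with both libraries of 197 complexes. Counts assigned to genes ranged from 559305 to 4536690 per oocyte library and from 510029 to 2501005 per cumulus library. The CR oocytes were the most deeply sequenced, with a median of 3578882 counts against 2332126 in Middle. Old oocyte libraries carried more cumulus marker RNA than the others, with a median of 4.85% of the cumulus level and a maximum of 26.5%, against a median of 1.55% in Young. No oocyte library of the second set went above 2.39%.

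The genes lie at separate loci of the GRCm38 build. Cdk1 and Fzr1 are both on chromosome 10, at chr10:69335146-69352938 and chr10:81366222-81378516. The cyclins are spread over chromosome 13 for Ccnb1, chromosome 9 for Ccnb2 and the X chromosome for Ccnb3. Promoters are shown for members of each of the 3 patterns described below: close levels in oocytes and cumulus cells (Cdk1, Ccnb2), higher levels in oocytes (Ccnb1, Plk1) and near absence from cumulus cells (Wee2, Ccnb3). Each is the 200 bases before the RefSeq transcription start on GRCm38.p6, 5′ to 3′ on the gene's strand, with the CCAAT box (CCAAT, or ATTGG on the other strand) and TTTGAA (or TTCAAA, the core of the cell cycle homology region) in capitals. The windows are chr10:69352913-69353112 (minus strand) for Cdk1, chr13:100786487-100786686 (minus) for Ccnb1, chr9:70421555-70421754 (minus) for Ccnb2, chr7:122159235-122159434 (plus) for Plk1, chr6:40442663-40442862 (plus) for Wee2 and chrX:7041620-7041819 (minus) for Ccnb3.
Cdk1: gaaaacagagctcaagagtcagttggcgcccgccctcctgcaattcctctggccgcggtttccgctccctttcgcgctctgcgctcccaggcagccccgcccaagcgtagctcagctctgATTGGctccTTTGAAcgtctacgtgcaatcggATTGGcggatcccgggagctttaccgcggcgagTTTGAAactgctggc
Ccnb1: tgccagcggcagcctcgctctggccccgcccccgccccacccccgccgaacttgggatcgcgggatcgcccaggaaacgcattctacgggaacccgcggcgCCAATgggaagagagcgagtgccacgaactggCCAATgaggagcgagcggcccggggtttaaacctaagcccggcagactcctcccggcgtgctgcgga
Ccnb2: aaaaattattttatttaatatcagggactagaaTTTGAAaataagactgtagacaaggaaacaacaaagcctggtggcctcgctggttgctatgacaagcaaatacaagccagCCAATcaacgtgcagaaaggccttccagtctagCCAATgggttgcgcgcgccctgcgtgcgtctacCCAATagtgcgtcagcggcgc
Plk1: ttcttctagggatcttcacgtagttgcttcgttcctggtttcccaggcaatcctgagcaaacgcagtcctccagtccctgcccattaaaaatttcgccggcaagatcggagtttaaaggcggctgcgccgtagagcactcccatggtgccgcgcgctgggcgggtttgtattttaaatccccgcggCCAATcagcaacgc
Wee2: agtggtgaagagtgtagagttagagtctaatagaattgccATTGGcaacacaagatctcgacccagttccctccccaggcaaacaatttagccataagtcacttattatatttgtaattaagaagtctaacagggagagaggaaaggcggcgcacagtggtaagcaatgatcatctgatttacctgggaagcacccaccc
Ccnb3: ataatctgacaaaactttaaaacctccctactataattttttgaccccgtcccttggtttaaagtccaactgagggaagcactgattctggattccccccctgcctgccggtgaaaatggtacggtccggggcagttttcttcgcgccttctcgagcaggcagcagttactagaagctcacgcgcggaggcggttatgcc
CCAAT boxes stood 32 bases apart in Cdk1 and in Ccnb1, and 3 boxes at intervals of 33 bases were found in Ccnb2. Such a pair, 30 to 35 bases apart, was present in 1.33% of 32851 RefSeq promoters of the same length, and any CCAAT box in 29.3%. Plk1 and Wee2 each held 1 CCAAT box and Ccnb3 none. The Wee2 window lies wholly inside the annotated gene (chr6:40439088-40466813, plus strand), because the RefSeq start used is downstream of the annotated one. TTTGAA was found 2 times in Cdk1 and once in Ccnb2, and in 12.5% of all promoters. These are letter matches only. Of the 10 genes, 8 had a promoter entry, and Mos and Fbxo43 did not.

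Mos was the highest of the 10 genes in oocytes of all 9 groups, in RPKM (reads scaled to gene length and library size), the unit used to compare genes. The order depends on the gene lengths behind RPKM, such as 1449 bases for Mos, 3140 for Wee2 and 4217 for Ccnb1. In pooled oocyte CPM (counts scaled to library size only), Ccnb1 (628) and Wee2 (570.5) were above Mos (534.6). Mos encodes the kinase that starts the oocyte's MAP kinase cascade. Its mean ran from 264.9 ± 32.3 RPKM (SD, n = 27) in CR to 427.8 ± 43.7 (n = 32) in 2moNoH. Wee2, the oocyte kinase that phosphorylates Cdk1, and Plk1, the polo kinase, came next in most groups. Mean Wee2 levels lay between 155.9 ± 25.8 RPKM in Young and 219.0 ± 64.1 in Old. For Plk1 the group means ranged from 132.9 ± 14.4 RPKM in CR to 181.3 ± 13.3 in 9mo. The order of Wee2 and Plk1 varied with the group. Plk1 was above Wee2 in 14 of 24 oocytes in 2mo and in 21 of 39 in 4mo, in 12 of 16 in Young and in 9mo, but in 3 of 16 in Old and 0 of 27 in CR.

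By RPKM, the kinase subunit was among the lowest of the 10. Its RPKM rest on a length of 4934 bases, against 1531 for Ccnb2. In pooled oocyte CPM, Cdk1 (106.9) was closer to Ccnb2 (128.3) and above Cdc25b (100.5). Cdk1 had group means of 19.2 ± 2.42 RPKM (CR) to 23.7 ± 2.02 (9mo) in oocytes, below its cyclin partners Ccnb1 and Ccnb2. Ccnb1, the main cyclin of maturation-promoting factor, had means of 125.4 ± 34.5 (Young) to 168.8 ± 47.0 RPKM (Old), and Ccnb2, which can stand in for it, 77.7 ± 18.7 (Middle) to 93.6 ± 8.34 RPKM (14mo). The median ratio of Ccnb1 to Cdk1 per oocyte in RPKM lay between 6.08 in Young and 8.86 in Old. Ccnb3, the cyclin needed to leave metaphase I, was last in every group, with means of 10.0 ± 2.51 RPKM in Young to 13.9 ± 4.44 in Old. By mean RPKM, the descending order Ccnb1, Ccnb2, Fzr1, Fbxo43, Cdc25b, Cdk1 and Ccnb3 was the same in all 9 groups.

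Among the regulators, Fzr1 had means of 32.3 ± 5.88 (CR) to 54.2 ± 11.6 RPKM (Young). The APC/C inhibitor Fbxo43, also called Emi2, was the steadiest in mean level, at 29.3 ± 5.70 (Old) to 32.4 ± 2.92 RPKM (Middle). Cdc25b, the phosphatase that activates Cdk1, had means of 20.9 ± 9.37 in Old to 31.5 ± 8.97 RPKM in Young. Fbxo43 and Cdc25b did not separate in Young, where Fbxo43 was above Cdc25b in 7 of 16 oocytes, nor in 9mo, where this held in 6 of 16. In Old and CR, unlike the other groups, Ccnb1 ranked above Plk1, but the order held in 9 of 16 and 18 of 27 oocytes only.

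Oocytes of the second set resembled each other more closely than those of Old. In the second set the coefficient of variation within a group was 6.34 to 9.12% for Plk1, 7.33 to 11.4% for Wee2 and 12.9 to 14.7% for Fzr1, and it was widest for Ccnb3, with up to 20.03%. In Old it was 51.0% for Cdk1, 49.4% for Cdc25b and 44.6% for Fzr1, and for Cdk1 a single oocyte had 252.7 CPM against a group median of 80.6. Plk1 again had a narrow range in the first set, 11.9 to 18.1%.

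**Figure D1:**
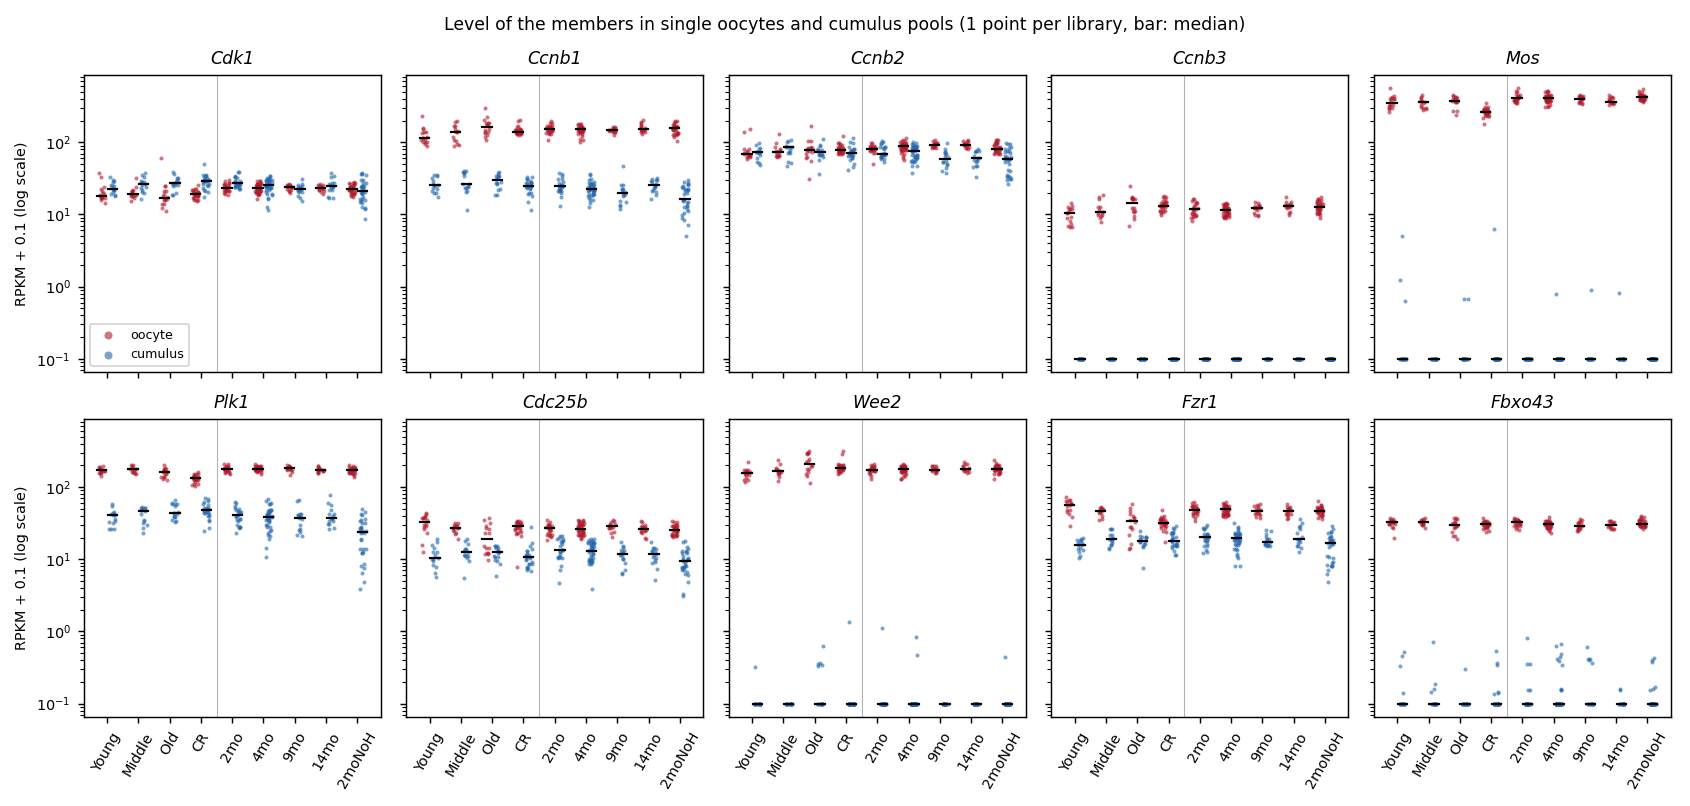
Levels of the 10 genes in RPKM on a log scale, with 1 point per library, in oocytes and in cumulus cells of the 9 groups. Mos lies highest among oocytes in each group, Ccnb3 is at 0 in all 199 cumulus libraries, and Cdk1 and Ccnb2 overlap between the cell types.

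Against the cumulus cells, the 10 genes split into 3 kinds. Ccnb3, Wee2, Mos and Fbxo43 were at or near 0 in cumulus cells. Ccnb3 had no count in any of 199 cumulus libraries and at least 17 counts in each of 200 oocyte libraries, and was at least 4057-fold higher in oocytes, with 3 counts over all cumulus libraries taken as the floor. Wee2 had 20 counts in 11 cumulus libraries, and its pooled CPM (counts scaled to library size) were 6156-fold higher in oocytes (95% Poisson interval 3986 to 10080). Mos had 38 counts in 10 cumulus libraries, of which 17 were in 1 library, and a ratio of 3036 (2212 to 4290). Fbxo43 had 43.5 counts in 43 cumulus libraries and a ratio of 618 (463 to 863). These intervals cover counting error only. Wee2, Mos, Fbxo43 and Ccnb3 were higher in the oocyte in 197 of 197 complexes.

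Ccnb1, Plk1, Fzr1 and Cdc25b were expressed in both cell types and were higher in oocytes. The pooled CPM ratio of oocytes to cumulus cells was 6.15 for Ccnb1, 4.16 for Plk1, 2.40 for Fzr1 and 2.29 for Cdc25b. Pooled ratios use library totals, and their size depends on scaling. In CR, the log2 difference of Ccnb1 was 3.21 with TMM scaling and 2.56 with library totals, and that of Fzr1 1.44 and 0.78. Within complexes, RPKM was higher in the oocyte in 197 of 197 for Ccnb1 and Plk1 and in 192 for Fzr1 and Cdc25b. Ccnb1 has a processed pseudogene, Ccnb1-ps, on chromosome 7, so its level is uncertain where reads match both copies. Ccnb1 counts were not whole numbers in 89.8 to 100% of libraries, by set and cell type. The share of reads that match both copies cannot be read from these counts. Ccnb2 likewise has a processed pseudogene, Ccnb2-ps. It is not stated whether the counting used strand, and without it reads of Cdc25b, Fzr1 and Plk1 cannot be told from those of the antisense neighbours Spef1, Mfsd12 and Gm44985 where they overlap.

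Ccnb2 and Cdk1 were close in oocytes and cumulus cells. Cumulus Ccnb2 had group means of 58.5 ± 20.9 (2moNoH) to 79.4 ± 18.5 RPKM (Middle), and cumulus Cdk1 22.1 ± 7.67 (2moNoH) to 29.02 ± 6.48 RPKM (CR). RPKM was higher in the oocyte in 150 of 197 complexes for Ccnb2 and in 69 for Cdk1. With edgeR's quasi-likelihood test and Benjamini-Hochberg adjustment, 9 of the 10 genes were higher in oocytes in every group, and Cdk1 in 14mo, 2moNoH, 4mo and 9mo only. A large share of all genes was called higher in oocytes as well: 40.7% in Young, 41.7% in Middle, 40.2% in Old, 42.9% in CR, 42.3% in 2mo, 41.2% in 4mo, 41.3% in 9mo, 42% in 14mo and 41.4% in 2moNoH. The direction of Cdk1 depends on scaling. In 4mo its log2 fold change was 0.27 with TMM scaling and −0.10 with library totals alone, which move the median of all genes by −0.29 to −0.61 on the log2 scale across the 9 groups. In Young, where it was not called over libraries, it was 0.080 and −0.24. With counts summed per mouse label Cdk1 was called in Young (0.43, adjusted p = 0.0244 by edgeR). No other call of the 10 genes changed under that test, and the share of all genes it called is not given here. In 9mo and 2moNoH Cdk1 kept its sign, with 0.08 and 0.03 under library totals. Ccnb2 also depended on scaling. Library totals gave it 0.13 in Young, −0.034 in Middle, 0.15 in Old and 0.12 in 2mo. In each of these groups 8 of the 10 genes were then called higher in oocytes. The share of all genes called higher with library totals is not given here, so this count cannot be set against it. Within complexes Ccnb2 was higher in the oocyte in 7 of 14 in Middle and 8 of 16 in Old. Cumulus libraries are pools, so fewer cells that express a gene and less of its RNA per cell cannot be told apart.

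The age comparisons ask whether this control circuit changes as the oocyte ages. In the first set, from Young to Middle, none of the 10 genes was called in oocytes, and 0% of the 22958 genes tested were called by edgeR, with 1783 at an unadjusted p below 0.05. None of the 10 was among those 1783. The intervals of the 10 differences spanned −0.53 for Cdc25b to 0.50 for Ccnb3 on the log2 scale. From Young to Old, 7.39% of genes were called in oocytes, and 3 of the 10: Fzr1 and Cdc25b fell and Wee2 rose. Oocyte markers in the Old libraries were at a median of 80.5% of the median oocyte library, with a lowest value of 32.01%, against 105% in Young, and mitochondrial genes took a median of 0.988% of counts in Old and 0.562% in Young. The part of the oocyte marker and mitochondrial values in these calls was not tested.

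Fzr1, the activator that lets the APC/C destroy cyclin B in the arrested oocyte, ranged from 106.7 to 321 CPM in Young oocytes, with a median of 257, and from 55.0 to 268 in Old oocytes, with a median of 142. The ranges overlap over most of their length. Mean Fzr1 fell from 244 ± 61.7 CPM (SD, n = 16) to 144 ± 64.3 (n = 16), with a log2 difference of −0.77 (SE 0.19, adjusted p = 0.0226 by edgeR). Cdc25b had a lowest, median and highest value of 36.8, 124 and 169.5 CPM in Young and of 32.1, 66.7 and 142 CPM in Old. Its mean went from 119 ± 38.1 to 75.5 ± 37.3 CPM, with a log2 difference of −0.67 (SE 0.21, adjusted p = 0.0462). A factor that holds Cdk1 activity down and one that raises it were thus both lower. Wee2 had a lowest, median and highest value of 374, 506 and 588 CPM in Young and of 341, 640.5 and 954 CPM in Old. Mean Wee2 rose from 485 ± 71.9 to 648 ± 178 CPM, with a log2 difference of 0.41 (SE 0.12, adjusted p = 0.0388). The median ratio of Wee2 to Cdc25b in RPKM was 4.48 in Young and 9.77 in Old oocytes. By mouse label its medians were 4.30 and 5.07 in Young and 6.49 and 16.3 in Old. In the second set the ratio was 6.37 in 2mo and 6.82 in 14mo.

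These 3 calls rest on 2 mouse labels per group. For Fzr1 the mouse means were 261 and 239 CPM in Young and 124 (Old1_2) and 189 (Old3) in Old, and the mice of the 2 ages did not overlap for any of the 3 genes, nor for Ccnb1 and Ccnb3, which were not called. Such a separation of the 2 and 2 mouse means was seen in 41.7% of all genes tested. With counts summed per mouse label 0% of all genes and none of these 3 were called (adjusted p 0.553 for Fzr1 and Cdc25b, 0.618 for Wee2). All 3 calls were lost without Old1_2, without Young1 or without Young2, and leaving out Old1_2 brought the difference to −0.37 for Fzr1 and −0.27 for Cdc25b. Without Young1 or Young2 the differences stayed near those of all libraries or were larger, with −0.73 and −0.91 for Fzr1 and −0.61 and −0.83 for Cdc25b, and Wee2 stayed between 0.39 and 0.47 under each omission. With the share of cumulus marker RNA as a covariate, Fzr1 (−0.64, adjusted p = 0.0722) and Cdc25b (−0.49, adjusted p = 0.217) were no longer called, while Wee2 was (0.54, adjusted p = 0.0215) and Ccnb3 became so (0.57, adjusted p = 0.0416). When the oocyte libraries with over 5% cumulus markers were left out, leaving 13 Young and 9 Old, the calls held for Fzr1 (−0.67), Cdc25b (−0.61) and Wee2 (0.45), and Ccnb1 was also called (0.36).

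In the second set, no member was called from 2mo to 4mo, where 0.0126% of genes were called, or from 2mo to 9mo, where 0.16% were called. The intervals of the differences reached from −0.18 (Ccnb3) to 0.19 (Ccnb2) at 4 months and from −0.22 (Fbxo43) to 0.28 (Ccnb2) at 9 months on the log2 scale. From 2mo to 14mo, 1.14% of genes were called, and Ccnb2 alone of the 10. Ccnb2 ranged from 83.5 to 149 CPM with a median of 125 in 2mo oocytes, and from 120 to 163 with a median of 144.5 in 14mo oocytes. The upper part of the 2mo range is shared with 14mo. Mean Ccnb2 rose from 124.5 ± 13.1 (n = 24) to 144 ± 12.7 CPM (n = 16), with a log2 difference of 0.21 (SE 0.05, adjusted p = 0.0173 by edgeR). The mouse means overlapped, since mouse 14mo39 had 127 CPM and the 2mo mice had up to 133, and the call was lost with counts summed per mouse (adjusted p = 0.277, with 0.221% of all genes called), with the cumulus marker covariate (adjusted p = 0.172) and without any of 5 single mice. The difference itself stayed at 0.18 per mouse, 0.20 with the covariate and 0.18 to 0.21 in those 5 omissions. At 9 months the mean was already 142 ± 10.8 CPM (n = 16), a difference of 0.19 from 2mo that was not called (adjusted p = 0.0722), and the mouse means of 2mo and 9mo did not overlap, as in 2.46% of all genes tested. Over the same ages of the first set Ccnb2 had 117 ± 26.98 CPM in Young and 118 ± 40.1 in Old, a difference of 0.0059, and the effects of the 2 sets were not called different (−0.19, adjusted p = 0.434).

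Fzr1, Cdc25b and Wee2 gave log2 fold changes of −0.05, 0.01 and 0.07 from 2mo to 14mo, none of them called. The age effects of the first and second set differed for Fzr1, by −0.71 (adjusted p = 0.0175), and for Cdc25b, by −0.67 (adjusted p = 0.0406), in an edgeR interaction test that called 5.25% of genes. For Wee2 the difference of 0.35 did not pass (adjusted p = 0.0617). Per mouse label, where 0.495% of genes were called, the differences of Fzr1 (adjusted p = 0.0877) and Cdc25b (adjusted p = 0.0688) did not pass either. The sets were prepared separately, so set and group of mice cannot be told apart.

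**Figure D2:**
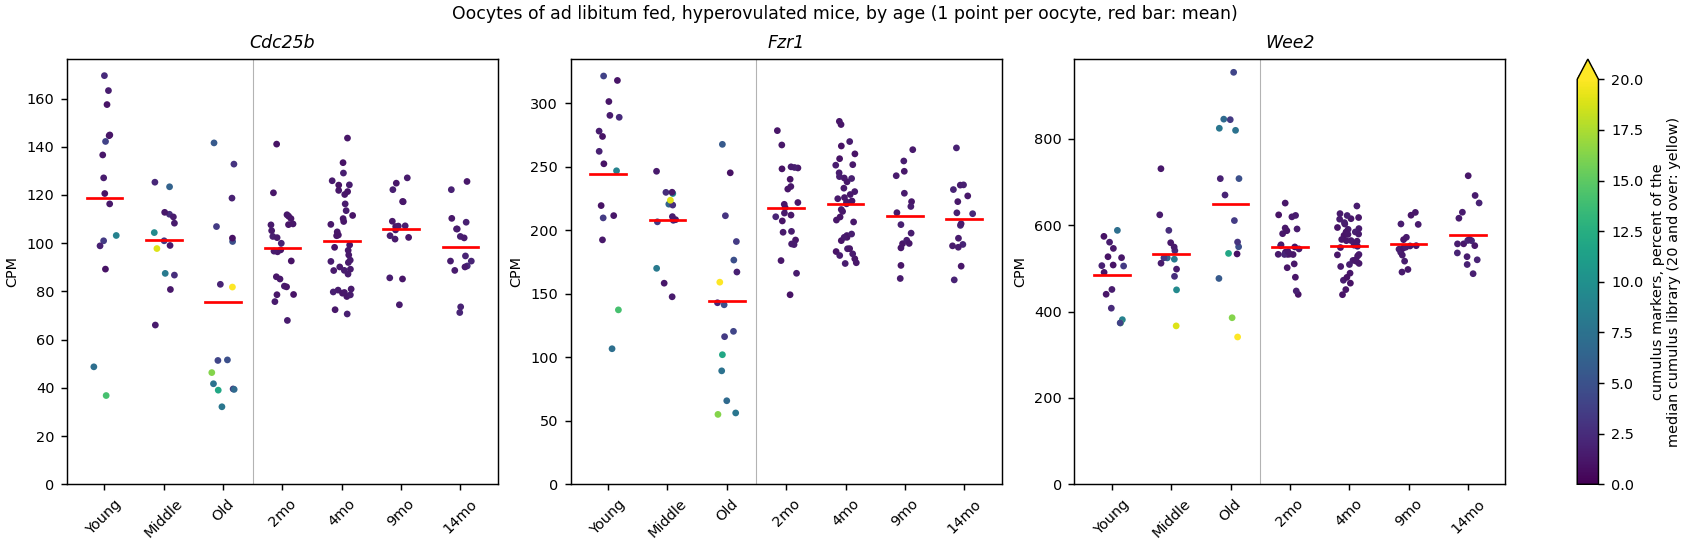
CPM of Cdc25b, Fzr1 and Wee2 in oocytes at each age of the first (left of the line) and the second set, with 1 point per oocyte, coloured by its cumulus marker share in percent of the median cumulus library, and a red bar at the group mean. Old oocytes of the first set spread widely and have a mean of 144 CPM for Fzr1 against 244 in Young, while 14mo oocytes have 209 against 217 in 2mo.

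From Middle to CR at 9 months, 4 of the 10 were called in oocytes: Mos, Plk1 and Fzr1 were lower and Wee2 higher under restriction. These 4 stand beside 30% of all genes called, 14.2% lower and 15.8% higher. Mos ranged from 409 to 684 CPM with a median of 519 in Middle oocytes and from 271 to 462 with a median of 403 in CR oocytes. Only the lower end of the Middle range is reached by CR oocytes. Mean Mos fell from 512 ± 81.6 (SD, n = 14) to 396 ± 43.3 CPM (n = 27), with a log2 difference of −0.37 (SE 0.06, adjusted p = 5.85e-06 by edgeR).

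Plk1 had a lowest, median and highest value of 319, 399 and 478 CPM in Middle and of 238, 309 and 369 CPM in CR. Its mean went from 391 ± 49.4 to 304 ± 36.1 CPM, with a log2 difference of −0.36 (SE 0.06, adjusted p = 6.34e-06). Fzr1 had a lowest, median and highest value of 148, 215 and 246 CPM in Middle and of 76.2, 155 and 222 CPM in CR. Mean Fzr1 went from 208 ± 29.1 to 151 ± 27.8 CPM, with a log2 difference of −0.45 (SE 0.09, adjusted p = 4.78e-05). For these 3 genes the mean of each CR mouse was below that of each Middle mouse, narrowly so for Plk1, where mouse Middle3, with 1 oocyte, had 319.4 CPM and mouse CR3 318. The mouse means of Middle and CR did not overlap for 23.8% of all genes tested. Wee2 had a lowest, median and highest value of 367, 525 and 731 CPM in Middle and of 485.5, 620 and 1010 CPM in CR. Mean Wee2 went from 534 ± 83.5 to 623 ± 101 CPM, with a log2 difference of 0.22 (SE 0.07, adjusted p = 0.0115), and its mouse means overlapped.

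The other 6 genes were not called. Cdk1 had 99.5 ± 16.7 CPM in Middle and 97.2 ± 10.8 in CR, and Fbxo43 131.5 ± 14.3 and 127 ± 12.5. Their log2 fold changes were −0.03 and −0.05. Ccnb1 (0.17, adjusted p = 0.0886), Ccnb3 (0.23, adjusted p = 0.0557), Ccnb2 (0.11) and Cdc25b (0.10) had positive values that did not pass the test. The median ratio of Mos to Ccnb1 in RPKM was 2.64 in Middle and 1.84 in CR oocytes. Summed per mouse label, 8.51% of all genes were called but none of the 10, with an adjusted p of 0.0982 for Mos, 0.109 for Fzr1, 0.207 for Plk1 and 0.284 for Wee2. The calls of Mos, Plk1 and Fzr1 held without any single mouse, and that of Wee2 was lost without CR3, Middle1 or Middle4, and with library totals in place of TMM scaling (adjusted p = 0.0863). If the excluded Middle library is put back, Mos (−0.21, adjusted p = 0.411) and Wee2 (0.38, adjusted p = 0.188) are not called and Ccnb1 is (0.30, adjusted p = 0.0487). With the share of cumulus marker RNA as a covariate the 4 calls held, and Ccnb3 was also called (0.22, adjusted p = 0.0398 by edgeR). Without the oocyte libraries over 5% cumulus markers, 3 members were called. The higher depth of the CR libraries moved with the comparison. So did the mitochondrial share, with a median of 0.961% of counts in CR and 0.666% in Middle oocytes. The part of depth and of the mitochondrial share was not tested.

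**Figure D3:**
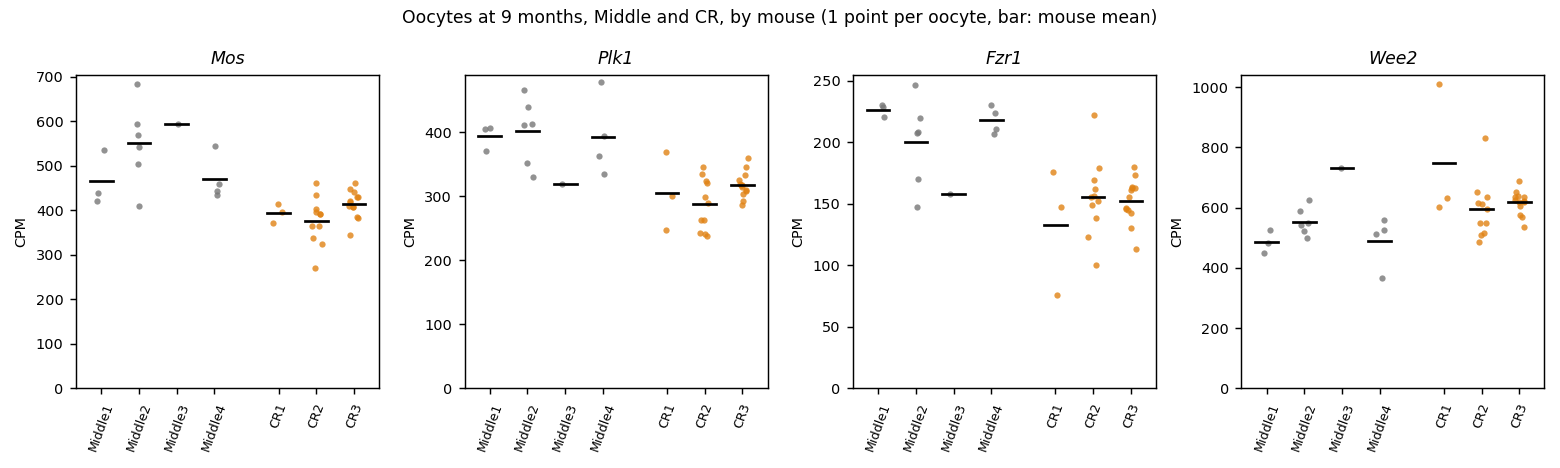
CPM of the 4 genes called between Middle and CR oocytes, with 1 point per oocyte, arranged by mouse, and a bar at each mouse mean. The CR mouse means of Mos, Plk1 and Fzr1 lie below those of the Middle mice, and those of Wee2 overlap.

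In cumulus cells none of the 10 genes was called from Middle to CR, where 3.6% of genes were called. Plk1 had 89.6 ± 21.4 CPM (n = 15) in Middle and 106 ± 27.3 (n = 25) in CR, with a log2 difference of 0.24 (adjusted p = 0.286). Fzr1 had 86.4 ± 19.02 and 84.7 ± 19.6 CPM, with a log2 difference of −0.03. The difference between the oocyte and the cumulus effect passed an edgeR interaction test for Plk1 (−0.69, adjusted p = 9.38e-05) and Fzr1 (−0.52, adjusted p = 0.00445), in a test that called 12.7% of genes. Mos also passed (−3.20, adjusted p = 0.0421), but its cumulus level was near 0, with 20 counts in 2 CR libraries and none in Middle. No such difference passed per mouse label, where 0.0979% of genes were called and the adjusted p was 0.729 for Plk1 and 1.0 for Fzr1.

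The comparison of 2mo with 2moNoH asks what the hyperovulation treatment itself does. In oocytes none of the 10 genes was called, and 0.0299% of all genes were. The log2 fold changes from 2moNoH to 2mo lay between −0.11 for Ccnb3 and 0.06 for Cdk1, and their intervals between −0.24 and 0.15. Mos had 617 ± 64.0 CPM (n = 32) without and 606 ± 72.3 (n = 24) with hyperovulation. Wee2 had 560 ± 63.8 and 550 ± 53.2 CPM.

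In the cumulus cells of the same complexes, 6 of the 10 genes were higher after hyperovulation and none was lower, in a comparison that called 13.2% of genes, 6.16% higher and 7.01% lower. Plk1 had a lowest, median and highest value of 8.77, 52.5 and 99.4 CPM without hyperovulation and of 51.5, 87.8 and 137 CPM with it. Its mean rose from 49.2 ± 25.7 (n = 32) to 88.0 ± 22.95 CPM (n = 24), with a log2 difference of 0.83 (SE 0.17, adjusted p = 0.000382 by edgeR). The median library without hyperovulation was near the lowest with it. Cdc25b rose from 35.3 ± 12.7 to 51.6 ± 17.1 CPM, with a log2 fold change of 0.55 (SE 0.14, adjusted p = 0.00400). Ccnb1 went from 73.4 ± 27.6 to 105 ± 23.2 CPM, by 0.51 on the log2 scale (SE 0.13, adjusted p = 0.00328). The smallest differences were those of Fzr1 (0.38, adjusted p = 0.0493), Ccnb2 (0.35, adjusted p = 0.0220) and Cdk1 (0.35, adjusted p = 0.0142). Cdk1 went from 108 ± 34.5 to 137.5 ± 22.6 CPM. Those higher were Ccnb1, Ccnb2, Cdk1 and its activators Cdc25b and Plk1, and also Fzr1, which directs the destruction of cyclin B. The median log2 fold change of the members tested was 0.51, against −0.04 over all genes. Ccnb3, Wee2 and Mos were too low to test, and Fbxo43, at 0.107 and 0.201 CPM, was not called.

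The mice of the 2 groups overlapped for all 6 genes. For Plk1 the mouse means ran from 20.4 to 92.9 CPM in the 8 mice without hyperovulation and from 68.7 to 105.5 in the 5 with it. Summed per mouse label none of the 6 was called, with an adjusted p of 0.200 for Plk1 and 0.952% of all genes called. All 6 were called with the plate as a covariate, and within single plates Cdc25b and Plk1 were called on plate B1 and Cdk1 and Plk1 on plate B2. Without mouse 2mo34 only Ccnb1 and Plk1 were called, and the call of Fzr1 was also lost without 2mo1, without 2mo2 and with library totals in place of TMM scaling (adjusted p = 0.0606). The 12 cumulus markers summed to a median of 6114 CPM in 2moNoH and 8142 in 2mo cumulus libraries, in ranges of 2589 to 9885 and 4723 to 10230, and the part of this difference in the result was not tested. The hyperovulation effect differed between oocytes and cumulus cells for Plk1 (−0.78, adjusted p = 0.000631), Cdc25b (−0.52, adjusted p = 0.0162), Ccnb1 (−0.51, adjusted p = 0.00949) and Ccnb2 (−0.42, adjusted p = 0.0238) in an interaction test that called 4.05% of genes, and for none per mouse label, where it called 0.2%.

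**Figure D4:**
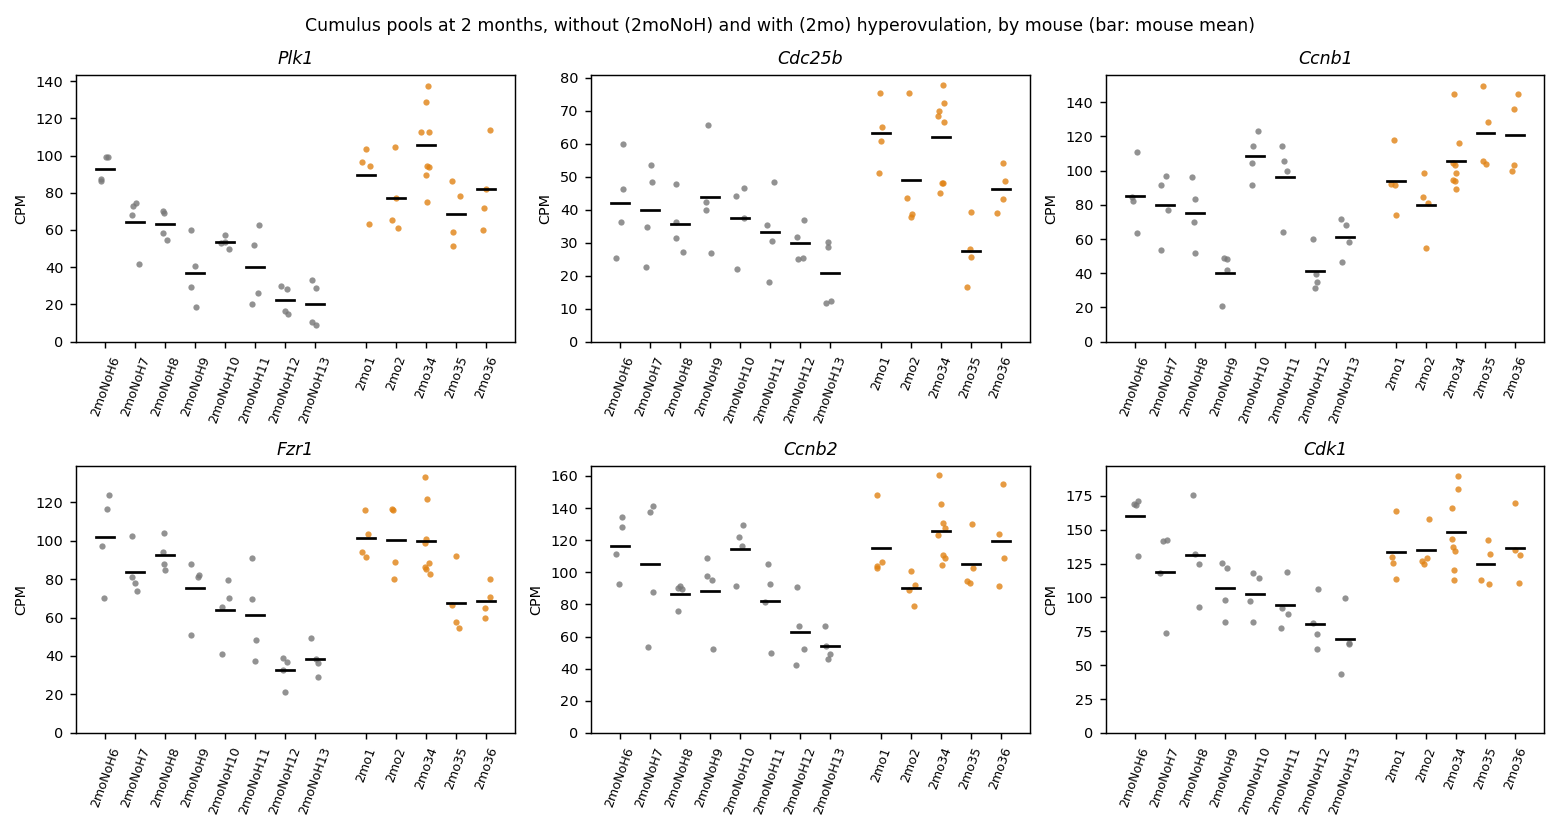
CPM of the 6 members called in cumulus cells, without (2moNoH, 32 libraries of 8 mice) and with hyperovulation (2mo, 24 libraries of 5 mice), with 1 point per library, arranged by mouse, and a bar at each mouse mean. Plk1 shows the largest shift, from a mean of 49.2 to 88.0 CPM, and the groups overlap for each gene.

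Across ages, the cumulus levels of the 10 genes gave no call. The share of all genes called was 1.46% from Young to Middle, 3.96% from Young to Old, 0.519% from 2mo to 4mo, 1.92% from 2mo to 9mo and 1.7% from 2mo to 14mo. The nearest to a call was Cdk1 from 2mo to 9mo, with 137.5 ± 22.6 (n = 24) and 114 ± 16.6 CPM (n = 16) and a log2 fold change of −0.27 (adjusted p = 0.0616 by edgeR, 0.0466 by DESeq2). Ccnb2 had 114 ± 21.96 CPM in 2mo and 91.9 ± 20.3 in 14mo, with a log2 difference of −0.28 (adjusted p = 0.121), opposite in sign to its value in oocytes.

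**Figure D5:**
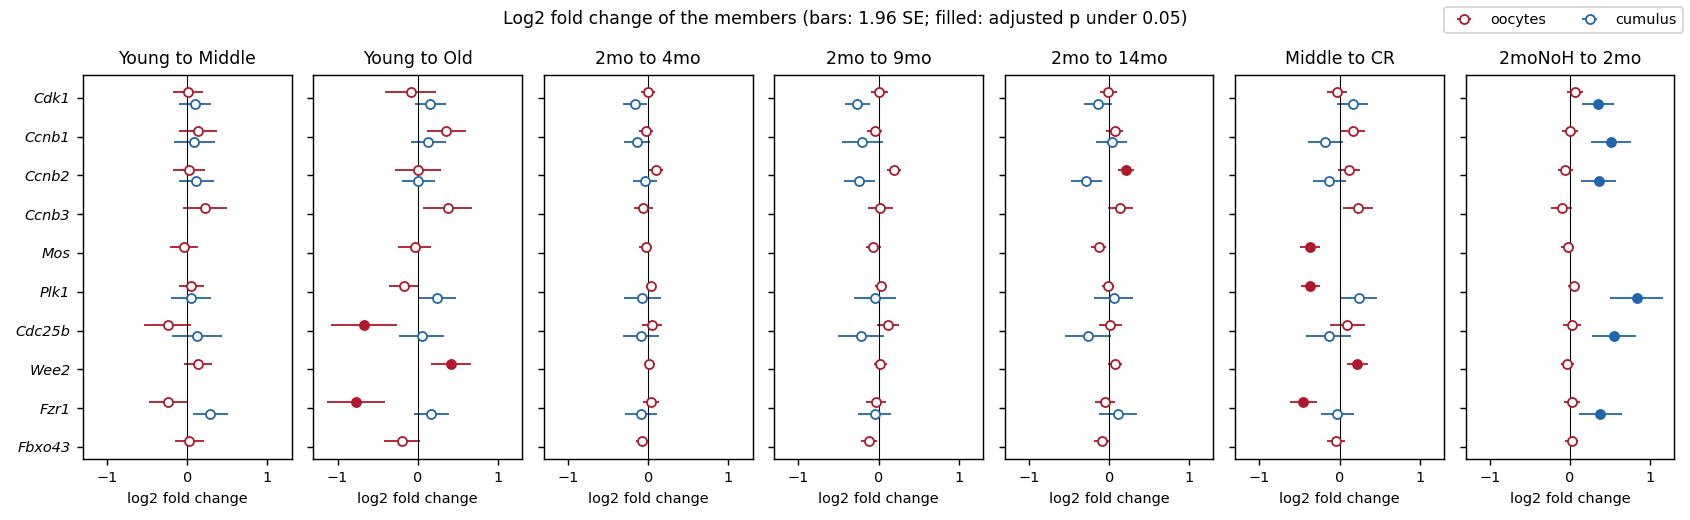
Log2 fold changes of the 10 genes in oocytes and of the 6 genes tested throughout in cumulus cells, for the 7 comparisons, with approximate 95% intervals derived from the edgeR fits. Filled points passed an adjusted p of 0.05, and all 6 cumulus genes lie above 0 for hyperovulation while the oocyte values lie near 0.

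Other genes of the same pathway were read from fixed lists of 25 further genes of Cdk1 control, 14 APC/C subunits and 14 proliferation genes. In oocytes from Middle to CR, 5 of 24 tested Cdk1 control genes were higher and 6 lower, against 30% of all genes called. The largest changes were in the phosphatase gene Cdc14b (1.06), the Cdk1 subunit gene Cks1b (−0.68) and Mastl (0.52), the Greatwall kinase that keeps an opposing phosphatase down. Mastl rose from 261 ± 48.6 to 374 ± 44.4 CPM, and these 3 genes were also called per mouse label. Among APC/C subunits 5 were higher and 2 lower of 14, led by Anapc11 (−0.45), Anapc10 (0.42) and Anapc16 (−0.28). None of the 14 was called per mouse label. Of the 14 proliferation genes 5 were higher and 3 lower, led by the kinase gene Aurkb (−0.74), Top2a (0.49) and Cenpf (0.44). Per mouse label 4 of the 14 were called, Aurkb, Top2a and Cenpf among them. The changes ran in both directions in each list. From Young to Old oocytes, Mastl was higher (0.43) and Pkmyt1, the other inhibitory kinase of Cdk1, lower (−0.72), with 1 APC/C gene, Anapc2 (−0.52), and 1 proliferation gene, Mcm5 (−0.49), lower. These stand beside 7.39% of all genes called, and none of all genes was called there per mouse label.

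In cumulus cells after hyperovulation, 8 of 24 Cdk1 control genes were higher and none lower, where 6.16% of all genes were higher and 7.01% lower. The largest were Rps6ka2 (0.87), Cdc25c (0.68), a phosphatase related to Cdc25b, and the APC/C inhibitor gene Fbxo5 (0.55). Cdc25c and Rps6ka2 were called per mouse label as well, at adjusted p = 0.0189 and 0.0339 by edgeR. Of the 14 proliferation genes 8 were higher, led by Tpx2 (0.60), Mcm3 (0.49) and Mcm2 (0.46), and none of them was called per mouse label. Of 14 APC/C subunits 4 were higher, led by Anapc7 (0.41), and none was called per mouse label. The median log2 fold change was 0.18 for the Cdk1 control genes, 0.37 for the proliferation genes and 0.10 for the APC/C subunits, against −0.04 over all genes. From 2mo to 9mo, the cumulus levels of Aurka (−0.57), Ccna2 (−0.40) and Cdc20 (−0.36) were lower. From Middle to CR, Wee1 (0.46), the somatic relative of Wee2, and 4 proliferation genes led by Mcm4 (0.49) were higher in cumulus cells. From Young to Old, 3 proliferation genes were higher there, Mki67 (0.36), Cenpf (0.35) and Kif11 (0.27). These came from 24 tested Cdk1 control genes and 14 proliferation genes. Of all genes, 1.92% were called from 2mo to 9mo, 3.6% from Middle to CR and 3.96% from Young to Old. None of these list genes was called per mouse label with age or diet in cumulus cells.

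Single oocytes of a group differed in ways that some members shared. Over the 127 oocytes of the second set, each centred on its group mean, Pearson's r of log2 CPM was 0.63 for Ccnb1 and Wee2, 0.51 for Cdc25b and Fzr1 and 0.38 for Cdk1 and Ccnb2. Over the 73 oocytes of the first set the same pairs had r of 0.70, 0.84 and 0.66. Opposite deviations were seen for Wee2 and Fzr1 (−0.65 and −0.40) and for Ccnb1 and Fzr1 (−0.50 and −0.52). Oocytes share mice, depth and scaling, so these values are descriptions. Among 6828 genes, the one most like Ccnb1 in the second set was its own pseudogene Ccnb1-ps (r = 0.90), with which it can share reads. The nearest to Wee2 was Oser1 (0.83 in the second and 0.71 in the first set), to Mos Nit1 (0.74 and 0.53), to Fzr1 Pigs (0.68 and 0.80) and to Cdc25b Astl (0.64 and 0.82), the gene of ovastacin, a protease of the egg. Fbxo43 was nearest to Plat (0.61 and 0.84), the gene of tissue plasminogen activator, and Plk1 to Smarcd2 (0.60 and 0.73). For Cdk1, Ccnb2 and Ccnb3 the highest values in the second set were lower, at 0.56 with Khdc3, 0.54 with Rps7 and 0.52 with Arih1.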

How the data were processed

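Single oocytes and the cumulus cell pools of the same complexes were sequenced in 401 libraries. The authors aligned the reads to GRCm38 with HISAT2 (2.0.5) and counted them on the GENCODE vM15 annotation with featureCounts (1.5.1), with multi-mapped reads included, and the use of strand is not given in the sources used here. The deposited count tables hold estimated counts, since 36.8% (first set) and 35.1% (second set) of the values above 0 are not whole, and they were rounded for the tests, although whole counts had been assumed in the design. The deposited RPKM tables are the authors' reads scaled to gene length and library size, and were used for order between genes and for comparison within complexes.

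Libraries were grouped by their labels. Groups were compared with edgeR 4.0.16 (R 4.3.3) by the quasi-likelihood F test with TMM scaling, over genes counted in 5 or more of the libraries compared, with Benjamini-Hochberg adjustment over all genes tested and a false discovery rate of 5%. CPM are TMM-normalized within a cell type, except for pooled CPM, which use library totals. An interval of a log2 fold change is a normal approximation to 95%, with an SE derived from the fold change and the F statistic. It can be slightly too narrow. For Fzr1 in oocytes from Young to Middle it ran from −0.48 to −0.0077, at an unadjusted p of 0.0507 by edgeR. Libraries of 1 mouse are not independent, so each call is given beside a test on counts summed per mouse label. Alternatives were DESeq2 1.42.0, no filter, no TMM scaling, cumulus marker share and plate as covariates, single plates, all deposited libraries and the omission of 1 mouse label at a time from groups with up to 5 labels, so not from 4mo or 2moNoH, with 8 each. No TMM scaling within a cell type, single plates and the 5% limit on cumulus markers were chosen after seeing the data.

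The labels tie each oocyte to its cumulus pool, which makes them a pair from 1 animal. Over 197 complexes, the deviations of both libraries from their group means had a median r of 0.04 (range −0.16 to 0.24), with 38 complexes above 0.1. None of 4857 pairs of libraries of a group was identical, and the smallest chi-square per degree of freedom between their counts was 1.85. Precision is limited by counts of 559305 to 4536690 per oocyte library and 510029 to 2501005 per cumulus library.

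The 10 members and the lists were chosen with earlier results of these data known. All 10 members are named. Of the other lists, at most 3 called genes per comparison are named, those with the largest log2 fold change and a mean of at least 8 CPM. Promoters are RefSeq sequences on GRCm38.p6.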

Additional observations from a re-analysis of the deposited data

Results flagged for a closer look

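Within groups of 4 to 10 mice, 6 of 96 sets of mouse means had 1 mouse far from the others relative to the group's range, where chance gives about 1 in 20. Both Middle values, Plk1 in oocytes of mouse Middle3 (319.4 CPM, nearest other mouse 392) and Cdc25b in its cumulus cells (19.97 CPM, nearest 47.6), come from 1 library each. In Plk1, this low mouse is the one that nearly reaches the CR mice. Ccnb2 in 14mo oocytes was low in mouse 14mo39 (127 CPM, nearest 143). The other 3 were Ccnb3 in 4mo oocytes of mouse 4mo27 (59.8 CPM, nearest 53.3), Cdc25b in 2mo oocytes of mouse 2mo35 (91.2 CPM, nearest 98.5) and Fbxo43 in 2moNoH oocytes of mouse 2moNoH10 (146 CPM, nearest 130).

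Effects that differed between cell types or sets, by edgeR interaction tests over libraries, were found for 9 gene and contrast combinations. For calorie restriction, the log2 effect in oocytes minus that in cumulus cells was −0.69 for Plk1, −0.52 for Fzr1 and −3.20 for Mos, the last against a cumulus level near 0. For hyperovulation it was −0.78 for Plk1, −0.52 for Cdc25b, −0.51 for Ccnb1 and −0.42 for Ccnb2. For age from 2 to 14 months in oocytes, the first set minus the second gave −0.71 for Fzr1 and −0.67 for Cdc25b. None of the 9 passed with counts summed per mouse label.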

How the results depend on the processing

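Of 1956 values of single members under the alternatives, 1706 kept their direction and side of the threshold, 149 were not called in either fit and changed sign, 74 lost a call, 20 gained one and 7 changed sign with a call in at least 1 of the fits. Among the 149 were Cdk1 between oocytes and cumulus cells in Young (0.080, and −0.24 without TMM), Ccnb2 in oocytes from Young to Old (0.0059, and −0.0022 with DESeq2) and Plk1 in oocytes from 2mo to 14mo (−0.018, and 0.0054 per mouse). The 7 were all between oocytes and cumulus cells and under another scaling: without TMM, Cdk1 was at −0.12 in 14mo, −0.26 in 2mo, −0.10 in 4mo, −0.61 in CR and −0.39 in Middle and Ccnb2 at −0.034 in Middle, and with DESeq2 Cdk1 was at −0.19 in CR. With the complex as a replicate block, the pairing of oocyte and cumulus cells changed no call of the 10 genes (10 higher in oocytes in 14mo, 9 in 2mo).

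Counts summed per mouse label left 0 of the 10 genes in each of the 4 comparisons with calls in oocytes or cumulus cells (Young to Old, 2mo to 14mo, Middle to CR, hyperovulation in cumulus cells) and 0 in the 3 interaction tests. From Young to Old, 5 members were called without TMM and 1, Fzr1, without the filter. From 2mo to 14mo, 0 were called with the cumulus covariate or within plate B1 or B2. DESeq2 called 1 member from 2mo to 9mo in oocytes (Ccnb2) and 1 in cumulus cells (Cdk1), the latter also without TMM. Within plates B1 and B2, 2 of the 6 cumulus genes were called for hyperovulation in each. Leaving out 1 mouse label, in groups of up to 5 labels and so of 2mo but not of 2moNoH or 4mo, gave 0 to 5 members from Young to Old (5 without Old3), 0 to 1 from 2mo to 14mo, 0 to 1 from 2mo to 9mo in oocytes (1 without 2mo1) and in cumulus cells (1 without 9mo22), 3 to 6 from Middle to CR and 2 to 6 for hyperovulation in cumulus cells. The causes were not tested. For the alternatives other than counts summed per mouse label, the share of all genes called is not given here. These counts therefore cannot be told from a change in that share. With 2 mouse labels per group, Young and Old allow little to be said about the spread between mice.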
